A study of Mus musculus with 62 samples.

Results

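The libraries described here came from the prefrontal cortex of female mice of the inbred C57BL/6 strain, given the MARBLES mixture by mouth, a blend of polychlorinated biphenyls (PCBs), which are persistent industrial chemicals. They were chosen by their tissue and dose labels, with 6 in the 6 mg/kg group and 5 in the 0.1 mg/kg group, and make up 11 of the 62 libraries of the series. Both groups had received PCBs, so the comparison sets the highest dose against the lowest and asks which transcripts differ between the ends of the dose range. The prefrontal cortex also had 4 libraries of mice given vehicle and 6 at 1 mg/kg, which give reference levels below and enter no test except where this is said. The labels name no transgene or deletion in either group, and the brain regions were taken as tissue punches. Age, the length of dosing, the time from the last dose to collection and whether each library is a separate mouse are not given in the sources used here, so p-values measure the spread between these libraries, which may in part be technical. Libraries are called by the numbers in their sample titles, 52, 53, 54, 55, 56 and 58 at 6 mg/kg and 23, 24, 25, 28 and 29 at 0.1 mg/kg.

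As background, neurons answer synaptic input and calcium entry with a rapid burst of transcription of activity-regulated early genes. The first to respond encode transcription factors of the Fos, Jun, Egr and Nr4a families, and effectors such as Arc, Homer1 and Bdnf act at synapses. The messages are short-lived, so their level in the cortex follows recent behaviour, handling and stress. Cells also hold inducible programmes for damaged proteins. Heat shock factor drives cytosolic chaperones such as Hspa1a through heat shock elements, and the unfolded protein response of the endoplasmic reticulum (ER) drives Hspa5, the main chaperone of that compartment, through ER stress elements. Some PCBs are known to open ryanodine receptors, the calcium release channels of the ER, and others act on thyroid hormone or on the aryl hydrocarbon receptor.

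No single gene passed the threshold of an adjusted p of 0.05 between 6 and 0.1 mg/kg. At an unadjusted p under 0.05, 23 of 26 activity-regulated early genes, 5 of 19 cytosolic heat shock chaperones and 9 of 22 genes of endoplasmic reticulum (ER) chaperones and the unfolded protein response were lower at 6 mg/kg. In the edgeR quasi-likelihood test on the 11 libraries with Benjamini-Hochberg adjustment, 0 of 14351 genes passed (0.0%), and the smallest adjusted p was 0.0728, reached by 5 genes, Hspa1a, Hspa1b, Manf, Fosb and Cdkn1a. At an unadjusted p under 0.05 there were 697 lower genes (4.86%) and 492 higher genes (3.43%), 1189 in all, and the median log2 fold change of all genes was 0.009. In what follows, lower and higher members of a list are counted at this unadjusted threshold, to be read against these shares of all genes. The lists and their members were chosen with earlier results of these data known, so such counts and the ranks of lists are descriptions. The DESeq2 Wald test on the same libraries passed 65 genes, 7 of them higher. When the vehicle and 1 mg/kg libraries also entered the edgeR fit and shared in the estimate of the spread, 16 of 14838 genes passed for 6 against 0.1 mg/kg, and all 16 were lower (0.108%). They were Hspa1a, Hspa1b, Manf, Fosb, Cdkn1a, Hspa5, Pdgfb, Stk40, N4bp3, Dusp4, Synpo, Sbk1, Ccdc117, Cbfa2t3, Ptgs2 and Ripor1. Leaving out a library changed the count of 0 on the 11 libraries to 19 without library 54, to 6 without 23, to 5 without 55 and to 2 without 24.

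The libraries of both groups had like depth. Total counts were 8.72 to 10.5 M (mega) at 6 mg/kg and 8.80 to 12.1 M at 0.1 mg/kg, and the group means differed by -0.574 M counts (6 minus 0.1 mg/kg, exact permutation test over all 462 splits, two-sided p = 0.411, where the smallest p the design allows is 0.00433). The libraries differed more in how their counts leaned with the GC content of genes. This lean is given as a GC slope, for which the deviations of a library from mean gene levels were correlated (Spearman) with the GC content of the transcripts. The slope was -0.583 in library 56, -0.327 in 58, -0.224 in 54, -0.202 in 53, 0.014 in 52 and 0.304 in 55 at 6 mg/kg. At 0.1 mg/kg it was -0.332 in library 23, 0.127 in 29, 0.131 in 25, 0.377 in 24 and 0.468 in 28. The dose groups overlapped in this slope, but 4 of the 6 libraries at 6 mg/kg lay below zero and 4 of the 5 at 0.1 mg/kg lay above it. Across 13741 genes the log2 fold change leaned with GC content too (Spearman rho -0.448 and Pearson r -0.375, a description across genes, which are not independent and share these libraries). Genes lower at an unadjusted p under 0.05 had a median GC content of 56% and the higher ones 44.6%, against 49.9% for all genes tested. The part of this lean in the results was not tested as a cause, so the main gene groups below are also given after adjustment for it.

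Activity-regulated early genes were the list with the largest share of lower members among the 34 lists examined. The rank of this list is a description, since lists were chosen with earlier results of these data known. All 26 genes of the list were tested, all 26 had a negative log2 fold change, and 23 were lower at an unadjusted p under 0.05, against 4.86% of all genes. Their median log2 fold change was -0.62, and none passed after adjustment over all genes on the 11 libraries. The summed level of the 26 genes was 1644 to 2835 CPM (counts per mega counts of the library, scaled by edgeR's TMM factors) at 6 mg/kg and 2507 to 3509 CPM at 0.1 mg/kg, with an overlap between the groups. It was 2229 to 2696 CPM in vehicle and 1637 to 2621 CPM at 1 mg/kg. In a bulk sample, fewer cells expressing a gene and less RNA per cell cannot be told apart.

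Fosb, which encodes a partner of Jun in the AP-1 transcription factor, had the smallest p of the list. At 0.1 mg/kg its level was 46.6, 45.2, 36.7, 22.9 and 30.9 CPM in libraries 29, 28, 25, 24 and 23, and at 6 mg/kg it ran from 13.4 to 25.4 CPM with a median of 15.1. The only 6 mg/kg library above any at 0.1 mg/kg was library 54 at 25.4 CPM, above library 24. The log2 fold change of -1.13 ± 0.19 (SE) had adjusted p-values in edgeR of 0.0728 on the 11 libraries and 0.00894 in the fit with all 4 dose groups. Arc, whose protein removes glutamate receptors from synapses, was 337, 590.2, 382, 349 and 369.9 CPM in the same order at 0.1 mg/kg and 86.96 to 311 CPM, median 158, at 6 mg/kg. The groups did not overlap for Arc, and the log2 fold change of -1.26 ± 0.25 (SE) had an adjusted p of 0.178 in edgeR. Library 54 was again the highest of its group, and library 56 was the lowest.

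Egr2 encodes a zinc finger transcription factor. Its level was 22.01, 23.5, 17.7, 10.7 and 21.4 CPM in libraries 29, 28, 25, 24 and 23 at 0.1 mg/kg, and 2.74 to 15.6 CPM with a median of 6.12 at 6 mg/kg. The groups overlapped through library 54, at 15.6 CPM, and the log2 fold change was -1.40 ± 0.31 (SE; adjusted p 0.196, edgeR). Jun, the other partner in AP-1, had a narrow range at 6 mg/kg, from 50.7 to 60.2 CPM, and was 82.7, 92.6, 68.3, 65.4 and 81.5 CPM at 0.1 mg/kg. The groups did not overlap for Jun, with a log2 fold change of -0.46 ± 0.10 (SE; adjusted p 0.196, edgeR). The mean of library 54 over the whole list was 5.81 log2 CPM, within the 5.63 to 6.23 of the 0.1 mg/kg libraries, while the other 5 libraries at 6 mg/kg were at 4.90 to 5.33.

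**Figure D1:**
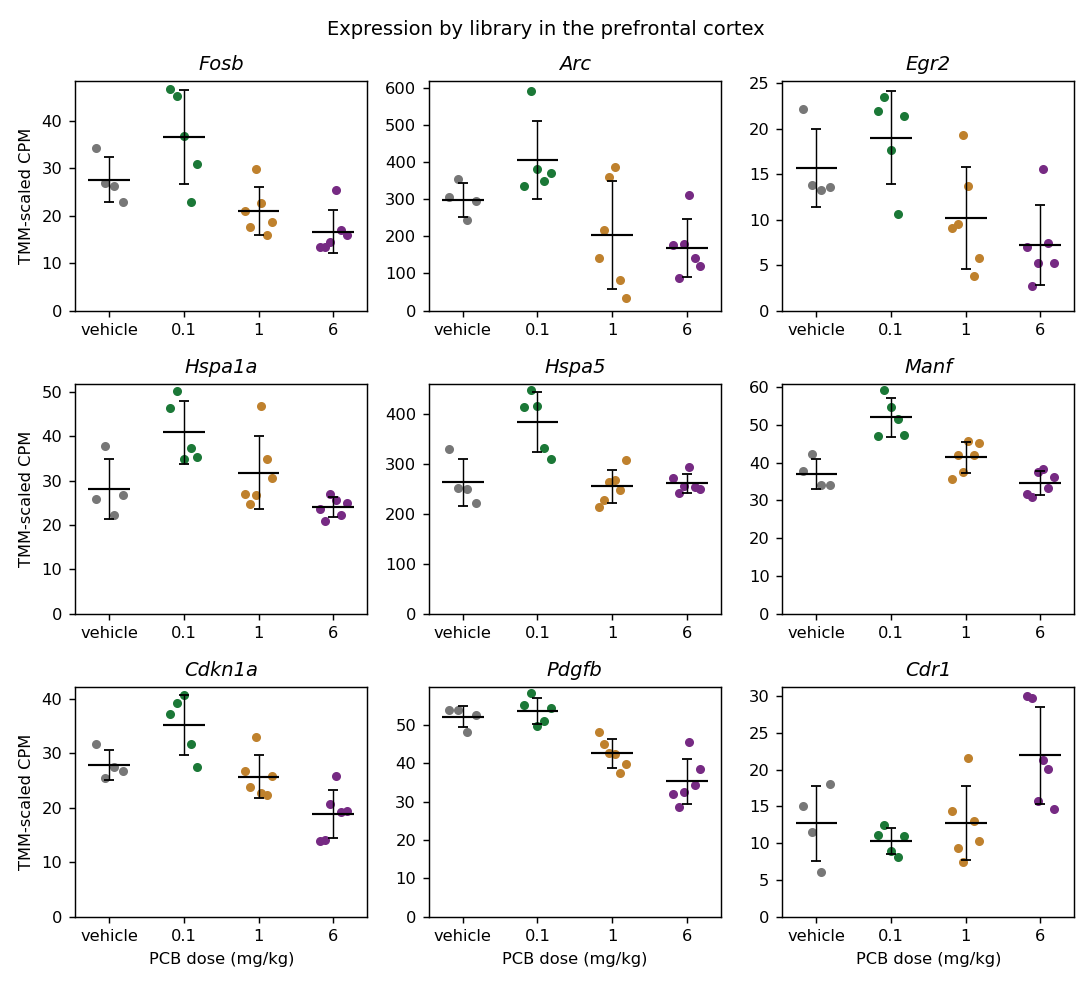
Level of 9 genes in each prefrontal cortex library (TMM-scaled CPM, linear axis from 0) by PCB dose, where points are libraries, horizontal bars means and whiskers 1 SD. For Hspa1a, Manf, Cdkn1a, Pdgfb, Hspa5 and Arc every 6 mg/kg library lies below every 0.1 mg/kg library, for Cdr1 every one lies above, and for Fosb and Egr2 the groups overlap through library 54.

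The remaining early genes are given here for every member. Among the Fos and Jun families, the log2 fold change was -0.84 ± 0.23 for Junb, -0.78 ± 0.24 for Fos and -0.63 ± 0.17 for Fosl2 (SE). The other Egr factors gave -0.76 ± 0.21 for Egr4, -0.48 ± 0.15 for Egr1 and -0.44 ± 0.11 for Egr3, and Npas4, a factor that responds to neuronal calcium, gave -0.75 ± 0.22 (SE). Egr1 is abundant in the cortex, and its level was 283 to 608 CPM at 6 mg/kg and 462 to 644 CPM at 0.1 mg/kg. The orphan nuclear receptors gave -0.80 ± 0.22 for Nr4a1, -0.77 ± 0.27 for Nr4a3 and -0.15 ± 0.20 for Nr4a2 (SE). Of the effectors at synapses, Nptx2, a secreted pentraxin that gathers glutamate receptors, gave -0.61 ± 0.16, the neurotrophin Bdnf -0.39 ± 0.17 and the scaffold Homer1 -0.32 ± 0.14 (SE). Klf4 gave -0.73 ± 0.20, the kinase Sik1 -0.73 ± 0.19, the growth arrest genes Gadd45g and Gadd45b -0.62 ± 0.23 and -0.49 ± 0.18, and Ier5 -0.50 ± 0.17 (SE). The phosphatases Dusp1 and Dusp6, which switch MAP kinases off, gave -0.62 ± 0.15 and -0.42 ± 0.16 (SE). Btg2 at -0.32 ± 0.21, Ier2 at -0.29 ± 0.25 and Nr4a2 were the 3 members above the threshold, with unadjusted p-values of 0.143, 0.261 and 0.447 in edgeR. In 3 of the 26 genes (Arc, Jun and Dusp1) no 6 mg/kg library reached the lowest 0.1 mg/kg library, against 0.864% of all genes tested whose groups did not overlap in that direction.

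The early genes were then followed under other settings. The count of lower members was 21 to 24 when any single library was left out, 23 when transcript GC and length entered as an offset, and 15 when the GC slopes entered as a covariate, where the median log2 fold change was -0.56. Without both libraries at the ends of the GC slope, 56 and 28, it was 19, with a median of -0.49. The lower count over all genes moved with the settings too, from 697 on the 11 libraries to 761 with the offset and 877 with the covariate. Over all genes it was 388 without both 56 and 28, and 483 to 1189 when a single library was left out. Set against vehicle in the fit over all 4 dose groups, the early genes at 0.1 mg/kg had a median of 0.32, with 6 of the 26 higher and 0 lower at an unadjusted p under 0.05, against 3.4% of all genes higher and 3.03% lower. In the same fit 6 mg/kg against vehicle gave -0.36, with 0 higher and 8 lower, against 4.28% and 4.99% of all genes. These comparisons share the vehicle libraries with each other and the dosed libraries with the comparison of 6 and 0.1 mg/kg, so the values are only set side by side.

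Feedback genes of the MAP kinase pathway held 6 lower members and 0 higher of 19 tested, with a list median of -0.18. Among all genes 4.86% were lower and 3.43% higher. With the GC and length offset 8 were lower, with the GC slope as covariate also 8, and without both libraries at the ends of that slope 4. The early genes Dusp1 and Dusp6 also switch MAP kinases off, so the lists may share members and this count is not separate evidence. Dusp4, a nuclear phosphatase for MAP kinases, was 30.9, 25.4, 23.03, 16.2 and 25.9 CPM in libraries 29, 28, 25, 24 and 23 at 0.1 mg/kg and 9.003 to 18.4 CPM, median 12.4, at 6 mg/kg. The groups overlapped through library 24, and the log2 fold change of -0.88 ± 0.20 (SE) had adjusted p-values in edgeR of 0.198 on the 11 libraries and 0.0353 with all 4 dose groups. Spry4, an inhibitor of receptor tyrosine kinase signalling, was 9.87 to 17.1 CPM at 6 mg/kg and 21.8, 17.9, 20.9, 20.04 and 17.6 CPM at 0.1 mg/kg, with no overlap. Its log2 fold change was -0.62 ± 0.14 (SE; adjusted p 0.196, edgeR). Dusp5, a phosphatase of nuclear ERK, gave -0.77 ± 0.21 (SE; adjusted p 0.337, edgeR).

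Of 19 cytosolic heat shock chaperones tested 5 were lower and 0 higher, with a list median of -0.13. Hspa1a, the inducible Hsp70, was 46.5, 50.3, 34.96, 37.5 and 35.3 CPM in libraries 29, 28, 25, 24 and 23 at 0.1 mg/kg and 20.8 to 27.01 CPM, median 24.2, at 6 mg/kg. The groups did not overlap, and the log2 fold change was -0.76 ± 0.12 (SE; adjusted p in edgeR 0.0728). Hspa1b, a near-identical copy of the gene next to it on chromosome 17, gave -0.83 ± 0.13 (SE), from 24.8 ± 4.65 CPM (SD, n = 6) at 6 mg/kg against 44.2 ± 6.13 CPM at 0.1 mg/kg (SD, n = 5), also without overlap. Reads of the copies can be split between them by the authors' counting, so their separate values are uncertain. Their co-chaperone Dnajb1 was 49.8 to 64.9 CPM at 6 mg/kg and 63.3 to 97.01 CPM at 0.1 mg/kg, a log2 fold change of -0.45 ± 0.12 (SE; adjusted p 0.285, edgeR). The small heat shock protein Hspb1 gave -0.67 ± 0.21 (SE; adjusted p 0.399, edgeR). The other lower member was the mitochondrial co-chaperonin Hspe1 at -0.29 ± 0.11 (SE), named after its values were seen. The constitutive chaperones Hspa8, Hsp90ab1 and Hsp90aa1, also named after their values were seen, gave -0.11 ± 0.09, -0.09 ± 0.08 and -0.01 ± 0.08, and the factor Hsf1 gave -0.01 ± 0.11 (SE), none of them past the unadjusted threshold. With the GC and length offset 9 of 19 were lower, with the GC slope as covariate 6, and without libraries 56 and 28 there were 4.

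The Hspa1a promoter is shown because it holds the element through which such genes are known to be induced. The stretch is the 250 bases before the RefSeq start on GRCm38.p6, chr17:34972157-34972406, minus strand, and the capitals mark a heat shock element (GAANNTTC or TTCNNGAA, searched on both strands).
Hspa1a: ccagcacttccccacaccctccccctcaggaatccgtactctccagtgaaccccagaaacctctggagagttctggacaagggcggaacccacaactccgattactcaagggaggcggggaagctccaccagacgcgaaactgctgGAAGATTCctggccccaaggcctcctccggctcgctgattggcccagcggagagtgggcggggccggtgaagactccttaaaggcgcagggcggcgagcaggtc
The same stretch of Hspa1b is identical at 247 of 250 bases. Of the 14 heat shock chaperones with a promoter in the RefSeq table, 8 held the element before at least 1 of their listed starts (57.1%), against 12% of the promoters of 11369 tested genes. Counted by start, where a gene can have several with overlapping windows, it was 45% of 20 starts against 9.97% of 14549. The 8 were Dnaja1, Dnajb4, Hspa1a, Hspa1b, Hspb1, Hspd1, Hspe1 and Hsph1. Among them Hspa1a, Hspa1b, Hspb1 and Hspe1 are in the lower group, while Dnaja1, Dnajb4, Hspd1 and Hsph1 had unadjusted p-values above 0.05. A match is a description of these letters and does not show binding. The list gathers heat shock chaperones, so the share of the element describes the list and not the comparison of doses.

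ER chaperones and genes of the unfolded protein response had 9 lower and 0 higher members of 22 tested, with a list median of -0.16. Hspa5 was 414, 447, 414, 331 and 308 CPM in libraries 29, 28, 25, 24 and 23 at 0.1 mg/kg, and 242 to 293 CPM with a median of 254 at 6 mg/kg. The groups did not overlap, and the log2 fold change of -0.55 ± 0.10 (SE) had adjusted p-values in edgeR of 0.0998 on the 11 libraries and 0.0342 with all 4 dose groups. Hspa5 ends beside Rabepk, which lies on the other strand, so without a statement of strand reads at that end may be mixed. Manf, a secreted protein induced by ER stress, was 47.1, 59.3, 54.7, 51.4 and 47.2 CPM at 0.1 mg/kg and 30.8 to 38.2 CPM, median 34.7, at 6 mg/kg. Every 6 mg/kg library was below every 0.1 mg/kg library, with a log2 fold change of -0.58 ± 0.10 (SE) and edgeR adjusted p-values of 0.0728 on the 11 libraries and 0.00649 with all 4 dose groups. Pdia4, a disulfide isomerase, gave -0.58 ± 0.12 (SE; adjusted p 0.196, edgeR) without overlap, from 27.3 to 33.8 CPM at 6 mg/kg and 35.6 to 55.3 CPM at 0.1 mg/kg. Its relative Pdia6 gave -0.44 ± 0.10 (SE; adjusted p 0.198, edgeR), with library 55 at 112 CPM above library 23 at 111 CPM.

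The other 5 lower members, named after their values were seen, were Sdf2l1 at -0.82 ± 0.24, Creld2 at -0.51 ± 0.15, the transcription factor Xbp1 at -0.30 ± 0.11, the calcium-binding chaperone Calr at -0.26 ± 0.09 and Hyou1 at -0.25 ± 0.09 (SE). The factors Atf4 and Ddit3, of another branch of the response, gave -0.11 ± 0.12 and -0.15 ± 0.15, and Herpud1 and Dnajb9 gave -0.04 ± 0.11 and -0.04 ± 0.09 (SE), again named after their values were seen and none past the unadjusted threshold. With the GC and length offset 13 of 22 were lower, and with the GC slope as covariate 7, as without libraries 56 and 28. Against vehicle in the 4-dose fit, which shares libraries with the comparison, 0.1 mg/kg gave a median of 0.27 with 12 members higher and 0 lower, and 6 mg/kg a median of 0.001 with 3 higher and 0 lower. Of all genes 3.4% were higher at 0.1 mg/kg and 4.28% at 6 mg/kg in these comparisons with vehicle. For Hspa5 the means were 261 ± 18.7 CPM at 6 mg/kg (SD, n = 6), 383 ± 59.96 CPM at 0.1 mg/kg (SD, n = 5), 254 ± 33.4 CPM at 1 mg/kg (SD, n = 6) and, for vehicle, 263 ± 46.5 CPM (SD, n = 4). The heat shock list had 8 of 19 higher and 0 lower at 0.1 mg/kg against vehicle, and 1 higher and 1 lower at 6 mg/kg, where 4.99% of all genes were lower.

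ER stress elements are shown for the members that hold one, because the unfolded protein response is known to act through them. The motif searched was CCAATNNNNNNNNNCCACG on both strands of the 250 bases before the RefSeq start. The stretches are of 30 bases on GRCm38.p6, read on the strand of the motif, with the motif in capitals.
Hspa5 (chr2:34772020-34772049, plus): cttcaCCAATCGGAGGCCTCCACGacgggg
Pdia6 (chr12:17266486-17266515, plus): agagaCCAATGAAAGGCGGCCACGgcgtgg
Calr (chr8:84847070-84847099, plus): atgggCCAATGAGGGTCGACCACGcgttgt
Creld2 (chr15:88819514-88819543, minus): gtggaCCAATTGAGGCTCGCCACGagaagc
Dnajc3 (chr14:118937822-118937851, plus): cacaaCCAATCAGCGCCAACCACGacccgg
Canx (chr11:50325794-50325823, minus): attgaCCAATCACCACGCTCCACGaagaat
Hsp90b1 (chr10:86705528-86705557, plus): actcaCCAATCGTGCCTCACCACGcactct
Hsp90b1 (chr10:86705632-86705661, minus): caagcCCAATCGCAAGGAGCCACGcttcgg
These 7 genes were 38.9% of the 18 members with a promoter in the table, against 0.158% of the promoters of 11369 tested genes, which include these 7. The list gathers genes of the unfolded protein response, so this share describes the list and not the comparison of doses. Hspa5, Pdia6, Calr and Creld2 are in the lower group. Dnajc3, Canx and Hsp90b1 gave log2 fold changes of -0.17 ± 0.11, 0.10 ± 0.08 and -0.12 ± 0.08 (SE), so members on both sides of the unadjusted threshold hold the element.

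The same window was searched in the early genes. Of the 20 early genes with a promoter in the table, 2 held a cyclic AMP response element (TGACGTCA), Btg2 and Dusp1, which is 10% against 3.03% of all tested promoters. The heat shock element was in 5 of the 20, Bdnf, Egr2, Fosl2, Homer1 and Jun, or 25% against 12%, and by start in 5 of 31 (16.1%) against 9.97%. For Egr2 that match lies before another of its listed starts than the one printed. Egr2 alone held a CArG box, the binding motif of serum response factor (5% against 1.42%), and it is printed because Egr2 had the most negative log2 fold change of the list. The stretch is the 250 bases before 1 of its 5 listed starts on GRCm38.p6, chr10:67537619-67537868, plus strand, with the CArG box in capitals.
Egr2: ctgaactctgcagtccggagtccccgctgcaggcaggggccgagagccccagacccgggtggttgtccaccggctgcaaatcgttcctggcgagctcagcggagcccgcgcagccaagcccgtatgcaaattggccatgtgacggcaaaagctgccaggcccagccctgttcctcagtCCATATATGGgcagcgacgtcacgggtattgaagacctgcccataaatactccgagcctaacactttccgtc

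**Figure D2:**
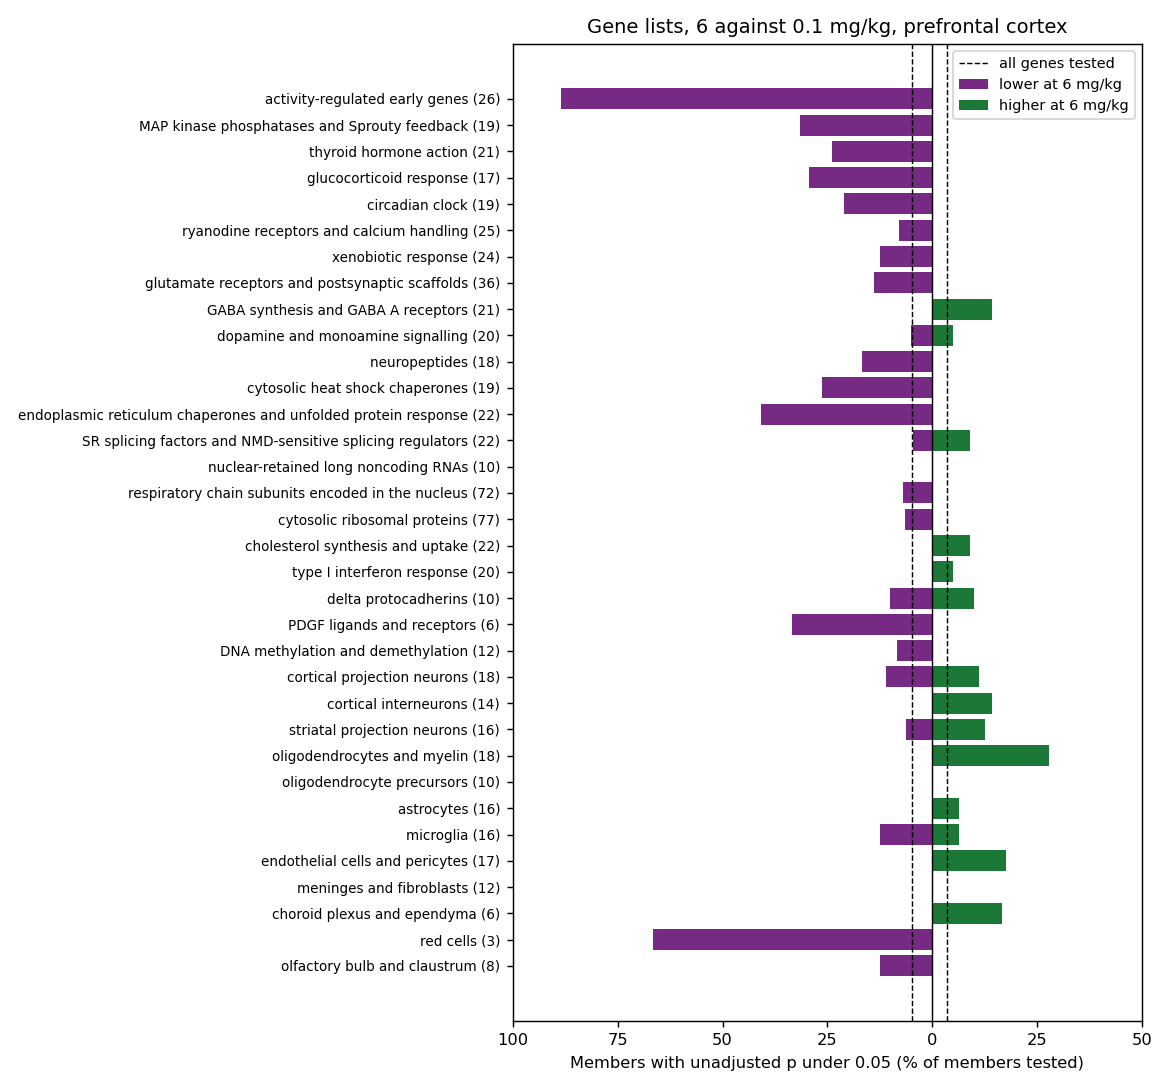
Share of the tested members of each gene list (number in brackets) with an unadjusted p under 0.05, in percent, lower at 6 mg/kg to the left and higher to the right, with dashed lines at the shares of all genes tested, 4.86% lower and 3.43% higher. The early genes (23 of 26) and the ER chaperones (9 of 22) reach furthest to the left among the lists of more than 6 genes.

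Among the lower genes outside these 4 lists, Cdkn1a, which encodes the cell cycle inhibitor p21, was 37.2, 39.3, 40.6, 31.7 and 27.5 CPM in libraries 29, 28, 25, 24 and 23 at 0.1 mg/kg. At 6 mg/kg it was 13.96 to 25.8 CPM with a median of 19.3. The groups did not overlap, with a log2 fold change of -0.90 ± 0.16 (SE; adjusted p in edgeR 0.0728, and 0.00649 with all 4 dose groups). Pdgfb, the B chain of platelet-derived growth factor, was 55.1, 58.3, 49.6, 51.1 and 54.3 CPM at 0.1 mg/kg and 28.6 to 45.4 CPM, median 33.4, at 6 mg/kg, without overlap. Its log2 fold change was -0.60 ± 0.11 (SE; adjusted p in edgeR 0.101, and 0.00649 with all 4 dose groups). The means of Pdgfb were 53.7 ± 3.41 CPM at 0.1 mg/kg (SD, n = 5), 42.6 ± 3.76 CPM at 1 mg/kg (SD, n = 6) and, for vehicle, 52.1 ± 2.75 CPM (SD, n = 4). Of the 6 PDGF ligands and receptors 2 were lower and 0 higher with a median of -0.08, the other being Pdgfa at -0.22 ± 0.09 (SE; adjusted p 0.548, edgeR). In this list 1 was lower without library 58, 56, 29, 28 or 25 and with the GC slope as covariate. Its median was 0.04 without library 25.

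Stk40, a pseudokinase, gave -0.66 ± 0.13 (SE; adjusted p 0.178, edgeR), from 33.8 ± 6.38 CPM (SD, n = 6) at 6 mg/kg against 53.8 ± 7.80 CPM at 0.1 mg/kg (SD, n = 5), with library 54 at 43.6 CPM above library 24 at 42.6 CPM. Nectin1, a cell adhesion molecule, gave -0.56 ± 0.11 (SE; adjusted p 0.178, edgeR), with the 6 mg/kg libraries at 36.6 to 56.4 CPM and those at 0.1 mg/kg at 62.1 to 75.3 CPM, without overlap. N4bp3 gave -0.68 ± 0.14 (SE; adjusted p 0.187, edgeR), also without overlap. The remaining genes that passed with all 4 dose groups included Synpo, the actin-binding synaptopodin of dendritic spines, at 274 ± 27.3 CPM (6 mg/kg, SD, n = 6) against 365 ± 31.1 CPM (0.1 mg/kg, SD, n = 5). Ptgs2, the inducible cyclooxygenase, which is itself known as an early gene of cortical neurons although not in the list used here, was 11.1 ± 1.60 CPM (6 mg/kg, SD, n = 6) against 21.2 ± 7.62 CPM (0.1 mg/kg, SD, n = 5), with overlap. Sbk1, Cbfa2t3, Ccdc117 and Ripor1 gave log2 fold changes of -0.51 ± 0.11, -0.65 ± 0.14, -0.50 ± 0.11 and -0.34 ± 0.08 (SE) on the 11 libraries, each without overlap between the groups.

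Fewer genes were higher than lower at the unadjusted threshold, and none of the higher ones passed in edgeR on the 11 libraries. DESeq2 passed 7 higher genes, and edgeR passed 1 without library 55 (Cdr1) and 1 without library 54 (Lrrc55). Cdr1 had the smallest p among the higher genes in edgeR. Its locus on the X chromosome is known for a circular RNA of neurons that binds a microRNA, and gene counts do not separate that circle from linear RNA. The level was 11.1, 12.5, 8.92, 8.19 and 11.04 CPM in libraries 29, 28, 25, 24 and 23 at 0.1 mg/kg, and 30.02, 29.7, 15.8, 21.4, 20.2 and 14.7 CPM in libraries 58, 56, 55, 54, 53 and 52 at 6 mg/kg. The groups did not overlap, as in 0.321% of all genes tested in that direction, and the log2 fold change was 1.10 ± 0.20 (SE; adjusted p in edgeR 0.0941). Cdr1os, annotated beside it on the X chromosome, gave 0.71 ± 0.19 (SE; adjusted p 0.321, edgeR), and without a statement of strand the reads of the pair may be mixed. Cdr1 passed with DESeq2 (adjusted p 0.000233) and in edgeR without library 55 (adjusted p 0.0238), and its other adjusted p-values ran from 0.0516 to 0.564. With the GC slope as covariate the log2 fold change was 0.81 for Cdr1 and 0.31 for Cdr1os.

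Srsf5, a splicing factor of the SR family, was 144 to 185 CPM at 6 mg/kg and 117, 99.4, 136, 133 and 121 CPM at 0.1 mg/kg, without overlap, a log2 fold change of 0.40 ± 0.09 (SE; adjusted p 0.200, edgeR). The list of 22 SR splicing factors and related regulators had 1 further higher member, Srsf6 at 0.19 ± 0.08, and 1 lower, Srsf9 at -0.29 ± 0.11 (SE), with a median of 0.001. Lrrc55, an auxiliary subunit of BK potassium channels, gave 0.55 ± 0.13 (SE; adjusted p 0.200, edgeR), from 37.5 ± 6.78 CPM (SD, n = 6) at 6 mg/kg against 25.9 ± 2.56 CPM at 0.1 mg/kg (SD, n = 5). Sgpp2, a sphingosine phosphate phosphatase, gave 0.46 ± 0.11 (SE; adjusted p 0.227, edgeR), and Sgf29, a histone reader of the SAGA complex, gave 0.60 ± 0.16 (SE; adjusted p 0.303, edgeR). Sgpp2 overlaps Farsb in the annotation.

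The rest of the 12 higher genes were at low levels. Lca5l was 1.34 to 2.24 CPM at 6 mg/kg and 0.627 to 0.970 CPM at 0.1 mg/kg, and Ccdc17 was 4.83 to 7.84 and 3.60 to 4.42 CPM, both without overlap. Plb1, a phospholipase, was 2.88 ± 0.733 CPM (SD, n = 6) at 6 mg/kg against 1.22 ± 0.454 CPM at 0.1 mg/kg (SD, n = 5), and the thromboxane receptor Tbxa2r was 1.53 ± 0.248 and 0.651 ± 0.275 CPM. Gpr21, at 6.88 ± 1.99 and 3.88 ± 0.891 CPM, lies within Rabgap1, and Mir5125, at 6.75 ± 1.60 and 3.47 ± 1.31 CPM, lies within Srrm2, so these counts cannot be assigned to either gene alone. The edgeR adjusted p-values of these 6 genes ran from 0.196 to 0.305.

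Against 4.86% lower and 3.43% higher among all genes, lists tied to known PCB actions held these members. Of 25 genes for ryanodine receptors and calcium handling 2 were lower and 0 higher with a median of 0.07, Orai2, a subunit of store-operated calcium channels, at -0.26 ± 0.09 (SE; adjusted p 0.450, edgeR), and Homer1. With the GC slope as covariate 3 of the calcium list were lower and the median was -0.07, without library 28 the median was 0.007, and without library 55 there were 2 higher. Of 24 xenobiotic response genes tested 3 were lower and 0 higher with a median of -0.04, and 1 was lower without library 52, 28 or 25. Por, the electron donor of cytochrome P450 enzymes, was 85.5 to 98.5 CPM at 6 mg/kg and 101 to 125 CPM at 0.1 mg/kg without overlap (log2 fold change -0.29 ± 0.08, SE; adjusted p 0.333, edgeR). Tiparp, a target of the aryl hydrocarbon receptor, gave -0.37 ± 0.16 and Hmox1, a target of Nrf2, gave -0.55 ± 0.22 (SE). Thyroid hormone action had 5 lower and 0 higher of 21, with a median of -0.02. That count was 3 without library 56, 54, 29 or 28, 3 with 1 higher when the GC slope was a covariate, and 1 with 1 higher without both libraries 56 and 28. Over all genes the lower count of 697 was 483 without 56, 642 without 54, 579 without 29 and 555 without 28. It was 877 over all genes with the GC slope as covariate and 388 without both 56 and 28. Dio2, which makes active thyroid hormone in astrocytes, was 43.4 to 73.9 CPM at 6 mg/kg and 67.4 to 122 CPM at 0.1 mg/kg (log2 fold change -0.51 ± 0.16, SE; adjusted p 0.393, edgeR), and the receptors Thra, Rxrb and Rxra gave -0.26 ± 0.09, -0.32 ± 0.12 and -0.27 ± 0.12 (SE).

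The glucocorticoid and clock lists are likewise set against 4.86% lower and 3.43% higher among all genes. Of 17 glucocorticoid response genes tested 5 were lower and 0 higher with a median of -0.16. The lower count ran from 4 to 10 when a library was left out, with 10 without library 53. With the GC slope as covariate 3 were lower and 1 higher. Per1, a clock gene also induced by glucocorticoids and by neuronal activity, was 147, 152, 136, 127 and 138 CPM in libraries 29, 28, 25, 24 and 23 at 0.1 mg/kg and 52.5 to 124 CPM, median 87.7, at 6 mg/kg, without overlap. Its log2 fold change was -0.70 ± 0.17 (SE; adjusted p 0.200, edgeR). Ddit4 gave -0.58 ± 0.17 and Fkbp5, the co-chaperone of the glucocorticoid receptor, -0.41 ± 0.14 (SE), and Cdkn1a is also in this list. Of 19 clock genes 4 were lower and 0 higher with a median of -0.05, Per1 among them with Nfil3 at -0.49 ± 0.15, Bhlhe40 at -0.46 ± 0.14 and Per2 at -0.39 ± 0.17 (SE).

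The synaptic gene lists are also set against 4.86% lower and 3.43% higher among all genes. Of 36 glutamate receptors and postsynaptic scaffolds 5 were lower and 0 higher with a median of -0.03, and the 4 with the smallest p were the scaffolds Dlgap4 at -0.25 ± 0.07, Dlgap3 at -0.29 ± 0.09, Shank1 at -0.31 ± 0.10 and Dlg3 at -0.19 ± 0.08 (SE). Of 21 genes of GABA synthesis and GABA A receptors 0 were lower and 3 higher with a median of 0.15, among them Gad1, which makes GABA, at 0.25 ± 0.09 and the receptor subunit Gabrg3 at 0.33 ± 0.15 (SE). With the GC slope as covariate the GABA list had 2 lower and 0 higher and the glutamate list 11 lower. The higher members of the GABA list were 7 without library 55, 6 without 23 and 1 without 58, 56, 53, 28 or 25. Dopamine and monoamine signalling had 1 lower (Adra2a, -0.26 ± 0.10, SE) and 1 higher (Slc18a2, 0.53 ± 0.19, SE) of 20 with a median of 0.07. The monoamine median was -0.04 with the GC slope as covariate and 0.02 without library 24. Neuropeptides had 3 lower and 0 higher of 18 with a median of -0.11, of which Vgf, an activity-regulated peptide precursor, gave -0.41 ± 0.12 and Cort -0.67 ± 0.23 (SE), with Bdnf the other. The neuropeptide median was -0.03 without library 28, -0.01 without both 56 and 28, and 0.10 with 2 lower when the GC slope was a covariate. Of 10 delta protocadherins Pcdh1 was lower without overlap at -0.46 ± 0.10 and Pcdh20 higher at 0.51 ± 0.18 (SE), with a median of 0.13. That median was -0.10 with the GC slope as covariate and 0.03 without both 56 and 28, each with 0 higher, and 3 were higher without library 55 or 23.

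Housekeeping lists depended on single libraries. Nuclear-encoded respiratory chain subunits had 5 lower and 0 higher of 72 and a median of -0.07, and cytosolic ribosomal proteins 5 lower and 0 higher of 77 and a median of -0.11. Among all genes 4.86% were lower and 3.43% higher. Without library 55 there were 24 lower respiratory and 25 lower ribosomal genes, without library 25 there were 2 of each, and with the GC slope as covariate the respiratory list had 0 lower and 16 higher and the ribosomal list 2 lower and 5 higher, with a median of 0.09. All genes moved with these settings too. Their lower count of 697 was 1189 without library 55 and 675 without 25. With the GC slope as covariate 877 genes were lower and 647 higher, against 697 and 492. Cholesterol synthesis and uptake had 2 higher and 0 lower of 22, among them Insig1, a brake on cholesterol synthesis, at 0.25 ± 0.09 (SE), with a median of -0.02. The cholesterol list had 1 higher without library 56, 53, 28 or 24 and with the GC slope as covariate. It had 3 higher without 55 or 29, and 0 without both 56 and 28. The type I interferon response had 1 higher and 0 lower of 20 (Ifit2, 0.53 ± 0.16, SE) with a median of 0.15, and DNA methylation and demethylation 1 lower and 0 higher of 12 (the dioxygenase Tet3, -0.41 ± 0.15, SE) with a median of -0.12. Of 10 nuclear-retained long noncoding RNAs 0 were past the threshold, with 9 of 10 log2 fold changes above zero and a median of 0.19, and Malat1 gave 0.34 ± 0.17 (SE). There were 4 higher without library 25, 3 without 55 and 2 with DESeq2, and the summed level was 2406 to 2930.0 CPM at 6 mg/kg and 1809 to 2844 CPM at 0.1 mg/kg. The part of these nuclear RNAs in the other results was not tested.

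Markers of cortical neurons were abundant, and those of striatal neurons were detected as well. Counts of markers, here and for red cells below, are set against 4.86% lower and 3.43% higher among all genes. Slc17a7, the vesicular glutamate transporter of cortical projection neurons, was at 1364 ± 188 CPM (SD, n = 6) at 6 mg/kg against 1660.0 ± 179 CPM at 0.1 mg/kg (SD, n = 5). Of 18 projection neuron markers 2 were lower (Slc17a7 at -0.28 and Neurod2 at -0.36 on the log2 scale) and 2 higher (Foxp2 at 0.48 and Tle4 at 0.32, of deep layers), with a median of 0.03. Their summed level was 2487 to 3052 CPM at 6 mg/kg and 2642 to 3338 CPM at 0.1 mg/kg. Of 14 interneuron markers 2 were higher and 0 lower with a median of 0.09, and of 16 striatal neuron markers 1 was lower and 2 higher with a median of 0.07. The interneuron list had 1 higher without library 56, 53, 52, 28, 24 or 23, and its median was 0.006 without 53. The summed striatal markers ran from 2618 to 5055 CPM at 6 mg/kg and from 3186 to 4902 CPM at 0.1 mg/kg, a wide spread within both groups. Oligodendrocyte markers had 5 higher and 0 lower of 18 with a median of 0.11, led by Opalin, a myelin protein, at 16.3 ± 2.84 CPM (SD, n = 6) at 6 mg/kg against 10.8 ± 2.79 CPM at 0.1 mg/kg (SD, n = 5), and their summed level was 4019 to 4714 and 3668 to 4779 CPM. The 5 higher became 2 without library 53 or 54 and 1 without library 28, as without both 56 and 28, and were 3 without 56, 29, 24 or 23. Over all genes 492 were higher on the 11 libraries, 348 without 28 and 263 without both 56 and 28. Endothelial and pericyte markers had 3 higher and 0 lower of 17 with a median of 0.11, and astrocyte markers 1 higher and 0 lower of 16 with a median of 0.03. Microglial markers had 2 lower and 1 higher of 16 with a median of -0.05, and the lower members were 0 without library 25 and 4 without 23. With the GC slope as covariate the microglial list had 0 lower and 0 higher, the interneuron list 1 and 0, the projection neuron list 0 and 2, the striatal list 1 and 1, and the endothelial list 0 and 1. Without both 56 and 28 the interneuron and microglial lists had 0 in either direction. Olfactory bulb and claustrum markers had 1 lower and 0 higher of 8 with a median of 0.02. Choroid plexus and ependyma had 1 higher and 0 lower of the 6 tested of 13 in the list, with a median of -0.07. Oligodendrocyte precursors and meninges had 0 past the threshold of 10 and of 12, with medians of -0.05 and -0.15.

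Of 7 red cell genes, which trace blood in a tissue, 3 were tested, 2 were lower and 0 higher, with a median of -1.58. With the GC slope as covariate 0 were lower and 1 higher past the unadjusted threshold, while the median was -1.29. Hbb-bt, a beta globin, was 32.3, 41.8, 6.57, 31.8 and 22.9 CPM in libraries 29, 28, 25, 24 and 23 at 0.1 mg/kg and 4.21 to 16.2 CPM at 6 mg/kg, a log2 fold change of -1.58 ± 0.43 (SE; adjusted p 0.337, edgeR). The alpha globin Hba-a1 gave -1.61 ± 0.53 (SE; adjusted p 0.458, edgeR). The summed red cell level was 57.9 to 138 CPM at 6 mg/kg, 85.5 to 245 CPM at 0.1 mg/kg and 89.2 to 630.1 CPM in vehicle. The part of these blood, glial and neuronal markers in the lower early genes and chaperones was not tested.

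The plot of list levels against GC slope shows the early genes and both chaperone lists library by library. Of the 11 libraries, 56 had both the lowest GC slope (-0.583) and the lowest mean early gene level (4.90 log2 CPM), and 28 had the highest of both (0.468 and 6.23). Library 55, with the highest GC slope at 6 mg/kg (0.304), had a mean early gene level of 5.33 log2 CPM, and library 23, with the lowest at 0.1 mg/kg (-0.332), had 6.00. For the heat shock list the same libraries were both at 6.87, and for the ER list at 6.21 and 6.28 log2 CPM.

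**Figure D3:**
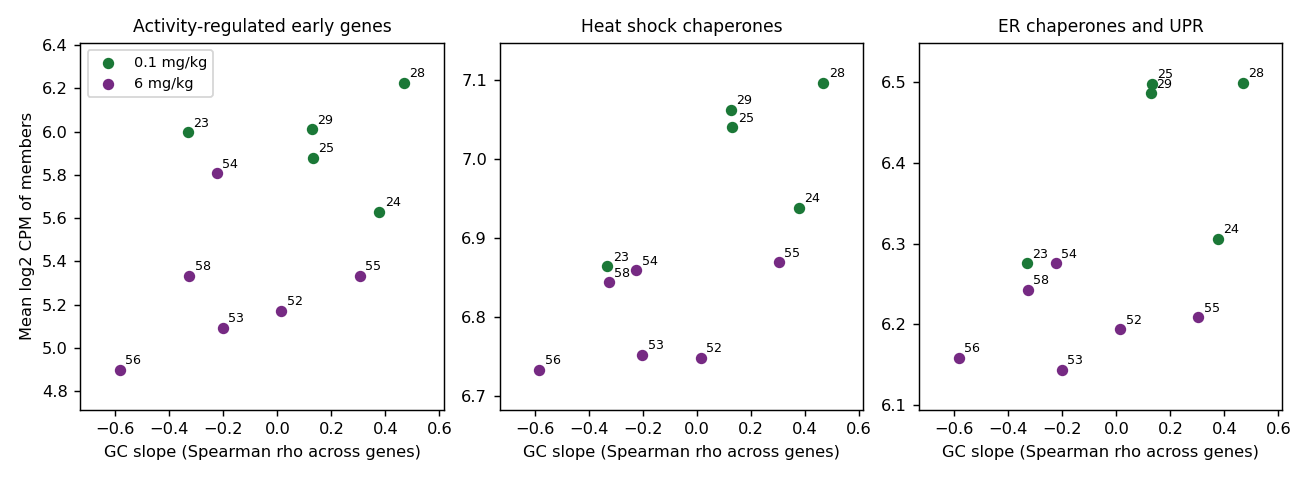
GC slope of each library (x, Spearman correlation across genes) against the mean log2 CPM of the early genes, the heat shock chaperones and the ER chaperones (y), with library numbers; 0.1 mg/kg in green and 6 mg/kg in purple. For early genes the 0.1 mg/kg libraries lie at 5.63 to 6.23 and the 6 mg/kg libraries at 4.90 to 5.81 over overlapping GC slopes.

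The same doses were compared in the striatum, in 11 libraries with the same numbers, to ask whether the difference between doses was the same in another brain region. In the region-by-dose test of edgeR, 150 of 14963 genes passed (1.0%), 130 of them with a more negative log2 fold change in the prefrontal cortex and 20 with a more positive one. By sign alone, whatever the p-value, 128 of the 148 with both values had a negative log2 fold change in prefrontal cortex and a positive one in striatum. For 18 the signs were reversed, and 2 had the same sign in both. All 150 were selected on the difference itself, so opposite signs do not show a change within each region. The 4 with the smallest p were Lmtk3, Scaf1, Lrfn4 and Gpc1. Lmtk3, a kinase of neurons, gave -0.14 ± 0.11 in prefrontal cortex and 0.70 ± 0.08 in the striatum, a difference of -0.84 ± 0.13 (SE; adjusted p in edgeR 0.00961). Lrfn4, a synaptic adhesion molecule that overlaps Pcx in the annotation, gave -0.29 ± 0.10 and 0.56 ± 0.10 and a difference of -0.84 ± 0.14 (SE; adjusted p in edgeR 0.0107). Scaf1 gave a difference of -0.65 ± 0.10 (SE; adjusted p in edgeR 0.00961), and Gpc1, a heparan sulfate proteoglycan whose gene overlaps Ankmy1, gave -0.61 ± 0.10 (SE; adjusted p in edgeR 0.0108).

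The GC lean of the libraries differed between the regions as well. In the striatum the GC slope was 0.137 to 0.387 in the 6 libraries at 6 mg/kg and -0.494 to -0.235 in the 5 at 0.1 mg/kg, without overlap and opposite to the lean in the prefrontal cortex. The 150 genes had a median GC content of 58.5%, and with an offset for GC content and length 12 genes passed, 5 of them among the 150. Lmtk3, Scaf1, Lrfn4 and Gpc1 did not pass with that offset, where their differences were -0.30, -0.18, -0.24 and -0.27, nor with all 4 dose groups or without number 29, where they kept their sign. With all 4 dose groups of both regions in the fit 0 passed in edgeR, with 3353 at an unadjusted p under 0.05, while DESeq2 on the 22 libraries passed 846. Leaving out a number in both regions gave 0 genes without number 29, 4 without 28, 14 without 24 or 58, 19 without 53, 23 without 56, 79 without 25 and 805 without 55.

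For the early genes the region-by-dose test passed 0 of the 26, while 4 had a more negative value in the prefrontal cortex and 0 a more positive one at an unadjusted p under 0.05, against 11.5% and 10% of all genes. In the striatum alone, where 668 of 14606 genes passed (1.74% lower and 2.83% higher), the median of the 26 was -0.42 and 10 passed, all lower. Side by side, Egr2 gave -1.40 ± 0.31 in prefrontal cortex and -1.23 ± 0.20 in the striatum, Arc -1.26 ± 0.25 and -0.79 ± 0.15, and Fosb -1.13 ± 0.19 and -0.76 ± 0.16 (SE). If the same mouse gave both regions, the regions are not independent samples.

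**Figure D4:**
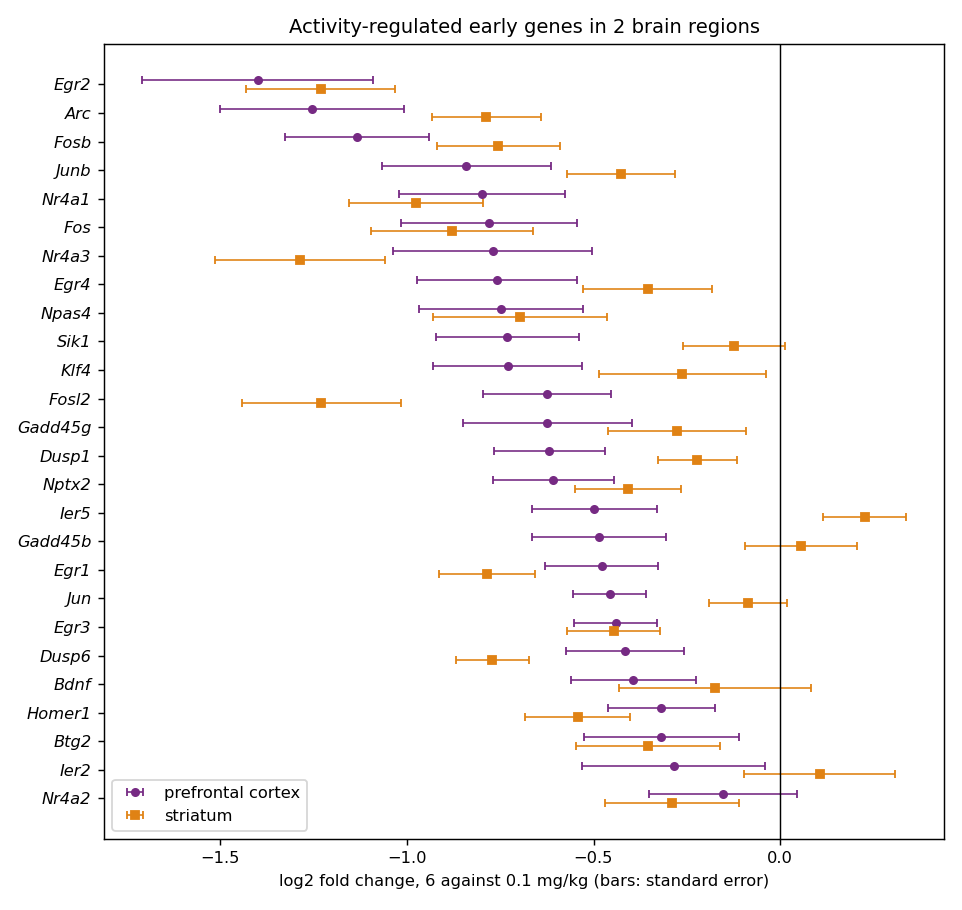
Log2 fold change (x) of 6 against 0.1 mg/kg for the 26 early genes (y) in the prefrontal cortex (purple circles) and the striatum (orange squares), with bars of 1 standard error. All 26 are below 0 in the prefrontal cortex, from -1.40 for Egr2 to -0.15 for Nr4a2, and in the striatum all but Gadd45b, Ier2 and Ier5 are below 0.

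Among the chaperones, Hspa1a gave -0.76 ± 0.12 in prefrontal cortex and -0.84 ± 0.20 in the striatum, and Hspa5 -0.55 ± 0.10 and -0.53 ± 0.10 (SE), with region differences of 0.08 ± 0.24 and -0.02 ± 0.14 (SE; adjusted p in edgeR 0.868 and 0.941). Of the 19 heat shock genes 9 passed as lower in the striatum alone, where the list median was -0.32. The region-by-dose test passed 1 of them, Hspa4l, at 0.20 ± 0.13 in prefrontal cortex and -0.50 ± 0.09 in the striatum (SE; adjusted p in edgeR 0.0461). Of the 22 ER genes 4 passed as lower in the striatum alone, and 0 passed the region-by-dose test, with 3 more positive and 0 more negative in the prefrontal cortex at an unadjusted p under 0.05. For the heat shock list these were 7 and 1, and of all genes 10% and 11.5%. Pdgfb differed between the regions, with -0.60 ± 0.11 in prefrontal cortex and 0.05 ± 0.09 in the striatum, a difference of -0.65 ± 0.14 (SE; adjusted p in edgeR 0.0271). N4bp3, at -0.68 ± 0.14 and 0.27 ± 0.11, had a difference of -0.96 ± 0.18 (SE; adjusted p in edgeR 0.0172), and Nectin1 had -0.72 ± 0.18 (SE; adjusted p in edgeR 0.0494). With all 4 dose groups in the fit, or without number 29, none of Hspa4l, Pdgfb, N4bp3 and Nectin1 passed, since 0 genes did, and none of the 4 passed without number 24 or 28. When a number was left out, Hspa4l passed only without 23 or 55 and Nectin1 only without 52 or 55. Pdgfb also did not pass without 53, 56 or 58. Nectin1 did not pass with a replicate block on the number shared between regions (adjusted p in edgeR 0.0561). With no filter on low counts its adjusted p in edgeR was 0.0557. With the GC and length offset the differences of Hspa4l, Pdgfb, N4bp3 and Nectin1 were 0.20, -0.23, -0.49 and -0.44, and none passed.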

How the data were processed

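RNA sequencing libraries of the prefrontal cortex and striatum were read as deposited raw counts per gene. Quality control with FastQC, alignment with HISAT2 and the genome build mm10 are named per the submitters' processing notes, and the counting tool, annotation and strand setting are not given in the sources used here. RNA was isolated from tissue punches and depleted of ribosomal RNA or selected for poly(A), per the labels' protocols. The prefrontal cortex table lists 17653 genes, each with at least 10 counts in total.

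The 6 and 0.1 mg/kg libraries were compared with the edgeR 4.0.16 quasi-likelihood test (R 4.3.3, filterByExpr, TMM, robust, Benjamini-Hochberg adjustment over all genes tested, threshold 0.05), and region-by-dose with an interaction term over both tables. Standard errors are the log2 fold change over the root of F. DESeq2 1.42.0, sva 3.50.0, other filters and size factors, GC corrections and leaving out libraries were alternatives. Levels are CPM with TMM factors over 21 libraries, with a prior count of 2 on the log2 scale. GC content and length of the longest GENCODE transcript were known for 95.7% of the genes tested. Motifs and promoters come from RefSeq (GRCm38.p6).

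Named genes were the 12 with the smallest p in each direction, up to 4 members of each of 34 lists, any that passed, and 4 for the region difference. Members and lists were chosen with earlier results of these data known. No pair of libraries of a group agreed within sampling noise. The methods were tested on simulated data. Liver and other comparisons were not used here, and 2 list members are counted but not reported by name.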

Additional observations from a re-analysis of the deposited data

Results flagged for a closer look

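Among the sets of libraries of 1 dose group tested for a far library, 5 of 76 held one, where chance gives about 1 in 20 (3.8 expected). Fosb was 25.4 CPM in library 54 at 6 mg/kg and 13.4 to 17.0 CPM in the other 5, so that library lay far from the rest of its group. Arc was 590.2 CPM in library 28 at 0.1 mg/kg, against 336.6 to 382.4 CPM in the other 4. Gpr21 was 10.75 CPM in library 56 at 6 mg/kg, against 5.49 to 7.08 CPM in the others, and Tbxa2r was 1.14 CPM in library 25 at 0.1 mg/kg, against 0.465 to 0.592 CPM. The summed level of cortical projection neuron markers was 2642 CPM in library 25 at 0.1 mg/kg, against 3172 to 3338 CPM in the others.

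The log2 fold change of 6 against 0.1 mg/kg differed between prefrontal cortex and striatum in the region-by-dose test for 150 genes. The difference was -0.84 for Lmtk3, -0.65 for Scaf1, -0.84 for Lrfn4 and -0.61 for Gpc1. The GC slope of the libraries also had opposite order in the regions, and its part in these genes was not tested beyond the offset for GC content and length, with which 12 genes passed.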

How the results depend on the processing

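For 6 against 0.1 mg/kg, where the edgeR quasi-likelihood test passed 0 genes on the 11 libraries, 16 passed with all 4 dose groups, 65 with DESeq2, 5 with no filter on low counts, 4 with 1 surrogate variable and 4 with an offset for GC content and length. Leaving out single libraries gave 0 to 19 genes. The count was also 0 when only genes averaging 10 or more counts were kept, with median-ratio size factors, with the GC slope as covariate and without libraries 56 and 28, a setting chosen after seeing the data. The difference in total counts ran from -0.898 to -0.0626 M counts when a library was left out. The region-by-dose count of 150 was 0 with all 4 dose groups, 846 with DESeq2 and 12 with the GC and length offset, which was also chosen after seeing the data, and ran from 0 to 805 when a number was left out. With a replicate block on the number shared between regions it was 362, 137 of them among the 150. The pairing was checked by the correlation of deviations from the group means, which was -0.02 to 0.22 with the own number (mean 0.129, and -0.025 with other numbers) and over 0.1 for 7 of 11, and 7 of 11 lay closest to their own number. This is a hint from the data that same-numbered libraries deviate together, but the labels do not say that a number marks a mouse and not every correlation was over 0.1, so the fit without the block was kept. Within the prefrontal cortex no paired analysis was possible because the groups share no number. Under these settings no sign changed among the 12 lower and 12 higher genes of smallest p or the 4 region genes. The cause of these changes was not tested. Depth of 8.72 to 12.1 M counts limits genes of a few CPM most.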
